A study of Mus musculus with 6 samples.

Results

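U1 and U11 are the spliceosomal RNAs that recognise the start of an intron, U1 in the major spliceosome and U11 in the minor one. They were measured here as Rnu1b1 and Rnu11, 2 of the 4200 genes that had an assembled transcript model in the deposited files. The genes were chosen by name: a single-exon model was sought that covered the mm10 span of the gene and was at most 8 times as long. Cover was read as at least 50% of the gene. Rnu11 met the rule. The model over Rnu1b1 covered its gene but had a second, short exon, so 1 of the 2 genes met the rule in full, and Rnu1b1 was kept with that difference stated.

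Spliceosomal RNAs work as RNA-protein particles. U1 pairs with the 5′ splice site of most introns, and it also protects nascent transcripts from early cleavage and polyadenylation. U11 pairs with the 5′ splice site of the rare minor class of introns, where it acts in one particle with U12, which pairs with the branch point. Both are made by RNA polymerase II, receive a ring of Sm proteins and a trimethylguanosine cap, and pass through nuclear bodies called Cajal bodies.

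RNA was sequenced from MEL cells, a mouse erythroleukemia line of C57BL/6 origin. All cells were crosslinked with formaldehyde and made into chromatin. There were 2 libraries in each of 3 groups. The first group was input chromatin, taken before any capture. The second was pulled down with masked TH59-DB, the negative control probe, and the third with TH59-DB, a polyamide of pyrrole and imidazole units made to bind telomeric DNA. Only the second library of each group carries a number in the labels, so the other was called library 1, and nothing says whether the libraries came from separate cultures. The p-values therefore measure only the spread between these libraries, which may be technical. Each library pools many cells, so fewer cells holding an RNA and less of it per cell cannot be told apart.

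The libraries held 1803723 to 3122558 reads in total, with 35.7% to 69.2% of these inside models. Levels are given as CPM, reads per 1000000 of the library total, and 1 read was worth 0.320 to 0.554 CPM. Of 16 erythroid marker genes listed, 6 had a model and all 6 had reads in every library, with a summed level of 783 and 1058 CPM in input, 435 and 948 CPM in masked TH59-DB and 444 and 335 CPM in TH59-DB. No globin gene of that list had a model. Of 11 listed markers of other blood cells, Itga2b and Laptm5 had models, with a summed level of 4.06 to 49.4 CPM. Masked TH59-DB library 1 stood apart: a single model in the span of Zc3h7a took 50.8% of it, against 2.77% to 20.8% of the other libraries, and 4341 of the 7959 models had no read there. TH59-DB library 1 had no model under 5 reads, whereas 1404 to 4341 models had no read in each of the other 5 libraries. Every model thus had reads in TH59-DB library 1, so the models are not a neutral set for comparisons with TH59-DB. This limit holds for U1 and U11 and for the shares of all models given below. Values are therefore given for every library.

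The Rnu1b1 gene spans chr3:96359953-96360117 (mm10, 165 bases) and is annotated in RefSeq as an snRNA gene. Of the 151 bases of its model, 144 formed an exon at chr3:96359983-96360126, which held 81.8% of the gene. The other 7 bases lay 31.4 kb away at chr3:96328586-96328592, and 5 of them fell in Gm24830, another gene annotated as an snRNA. The RefSeq table holds 4 named U1 genes (Rnu1a1, Rnu1b1, Rnu1b2 and Rnu1b6), and only Rnu1b1 had a model. U1 copies are nearly identical in sequence. How the authors counted reads that match several copies is not given in the sources used here, so the Rnu1b1 value is uncertain as a measure of this one copy and is called U1 below.

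The Rnu11 gene spans chr4:132270079-132270186 (mm10, 108 bases). Its single-exon model at chr4:132270102-132270214 was 113 bases long and held 78.7% of the gene, missing 23 bases at the lower coordinate and running 28 bases past the higher one. No other gene or model overlapped either gene. The nearest annotated genes were Platr30 and Gm52638, 1.47 and 6.47 kb from Rnu1b1, and Gm28874 and Taf12, 2.97 and 4.17 kb from Rnu11. Whether counting used strand is not given in the sources used here, so antisense reads would be included if it did not. The partner RNA of U11, U12 (Rnu12, chr15:83149645-83149794), had a single-exon model of 148 bases that held 97.3% of the gene. Rnu2-10, Rnu5g, Rnu7 and the other named U1 genes had no model, and Rnu4atac and Rnu6atac are not in the gene table used here.

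U1 was measured at 357 and 76.0 CPM in input libraries 1 and 2, at 36.5 and 78.1 CPM with the masked probe and at 229 and 74.5 CPM with TH59-DB. The reads behind these values were 1067 and 217, 72 and 244, and 413 and 193. Library 1 was the high one in input and in TH59-DB and the low one in masked TH59-DB, and the 3 groups overlapped: input 2, masked 2 and TH59-DB 2 lay within 74.5 to 78.1 CPM of each other. Their exact 95% Poisson intervals were 66.2 to 86.8, 68.6 to 88.6 and 64.4 to 85.8 CPM, so the number 2 libraries did not differ beyond counting error. These intervals cover counting error only and leave out the spread between libraries. The reads carry no molecular identifiers, so 1 molecule may be counted more than once and the intervals may be too narrow. Both limits hold for all exact intervals below. The group means were 217 ± 199 CPM in input, 152 ± 109 CPM with TH59-DB and 57.3 ± 29.4 CPM in masked TH59-DB (SD, n = 2 each). No neighbouring pair in that order differed beyond its spread.

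U11 was measured at 45.2 and 8.76 CPM in input, at 11.2 and 12.5 CPM in masked TH59-DB and at 90.4 and 31.7 CPM in TH59-DB. The reads were 135 and 25, 22 and 39, and 163 and 82. Both TH59-DB libraries lay above both masked libraries, while the input libraries lay on either side of the masked ones and input 1 lay above TH59-DB 2. The exact intervals of the closest pair, TH59-DB 2 (25.2 to 39.3 CPM) and masked 2 (8.88 to 17.1 CPM), did not touch. The group means were 61.0 ± 41.5 CPM with TH59-DB, 27.0 ± 25.8 CPM in input and 11.8 ± 0.938 CPM in masked TH59-DB (SD, n = 2 each). The means of TH59-DB and input, and of input and masked TH59-DB, did not differ beyond their spread.

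**Figure D1:**
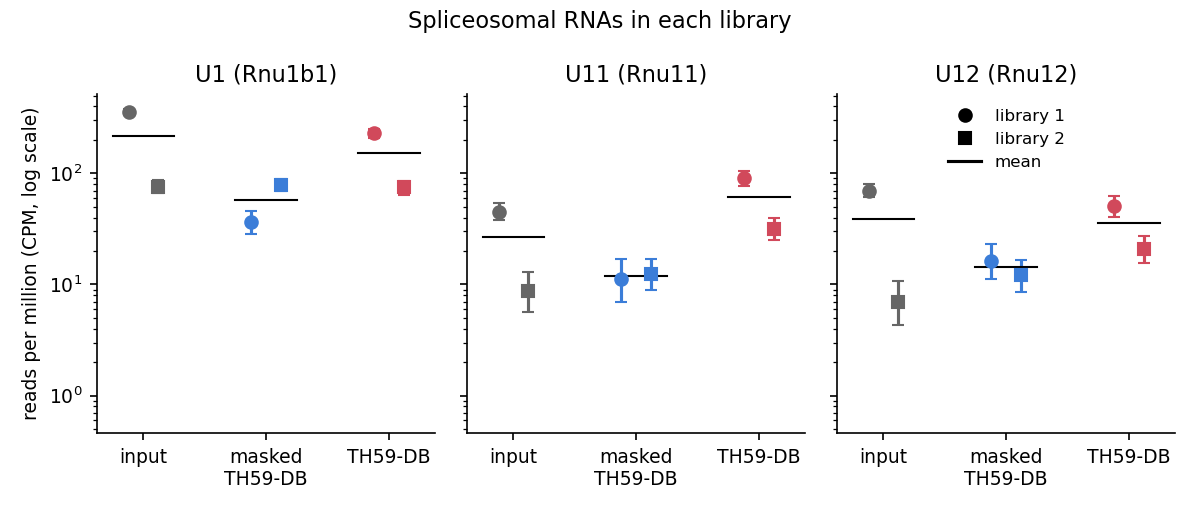
Levels of U1, U11 and U12 in each library, in CPM on a log axis. Circles are library 1 and squares library 2 of a group, error bars are exact 95% Poisson intervals of the reads, and horizontal lines are group means of 2 libraries. The TH59-DB and masked points overlap for U1 (74.5 against 78.1 CPM) and are separate for U11 (31.7 CPM against at most 12.5 CPM).

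Per length, the U1 model had more reads than the U11 model in every library. It had 2367 and 503 reads per kb per 1000000 in input, 242 and 517 with the masked probe and 1516 and 494 in TH59-DB. U11 had 400 and 77.5, 98.8 and 111, and 800 and 280 reads per kb per 1000000 in the same order. On this scale U1 was 5.91 and 6.50 times U11 in input, 2.45 and 4.68 times U11 with the masked probe and 1.90 and 1.76 times U11 in TH59-DB. The excess of the U1 model over the U11 model was thus smallest in the TH59-DB libraries. Only 1 of the 4 named U1 genes had a model, so reads of other copies may be missing. These ratios therefore do not give the abundance of all U1 relative to U11.

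The comparison of TH59-DB with the masked probe asks which RNAs came down with the telomere-directed probe beyond the background of the procedure. The mean level of U11 was 5.16 times and that of U1 2.65 times as high in TH59-DB as in masked TH59-DB. In edgeR's quasi-likelihood test over all 5385 models tested, the log2 fold change was 2.40 for U11 (SE 0.90, 95% interval 0.41 to 4.39, unadjusted p = 0.0228, Benjamini-Hochberg adjusted p = 0.332). For U1 it was 1.50 (SE 0.89, 95% interval -0.47 to 3.48, adjusted p = 0.738). Neither passed an adjusted p of 0.05, against 1.41% of all models called higher and 0 called lower, and the median log2 fold change of all models was 0.30. Both libraries of TH59-DB lay above both masked libraries for U11 and not for U1, against 16.1% of all models.

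The fold was also taken between libraries of the same number. For U1, TH59-DB over masked TH59-DB was 6.27-fold in library 1 and 0.954-fold in library 2. For U11 it was 8.10-fold in library 1 and 2.54-fold in library 2. The numbers are not known to pair the libraries, and these folds are given as values only. Leaving out any 1 of the 6 libraries gave a log2 fold change of 1.80 to 2.49 for U11 and 1.13 to 1.61 for U1. Without masked TH59-DB 1, the library that stood apart, U11 was at 2.49 (edgeR adjusted p = 0.313) and U1 at 1.13 (adjusted p = 0.775). Without TH59-DB 1 they were at 2.20 (adjusted p = 0.803) and 1.29.

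Set against the input, which holds the RNA of all chromatin before capture, the pair stood on opposite sides of 0. The log2 fold change of TH59-DB against input was 0.80 for U11 (SE 0.85, 95% interval -1.08 to 2.69, edgeR adjusted p = 0.832) and -0.90 for U1 (SE 0.88, 95% interval -2.84 to 1.04, edgeR adjusted p = 0.801). Neither passed, against 3.58% of all models called higher and 0.0371% called lower. In same-numbered libraries TH59-DB over input was 2.0-fold and 3.62-fold for U11 and 0.641-fold and 0.981-fold for U1. The sign of either edgeR value rested on 1 input library: without input 1, U1 was at 1.05, and without input 2, U11 was at -0.09. Without input 1, U11 was at 2.88.

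Masked TH59-DB against input gives the RNA recovered by the procedure without the telomere-directed probe. The log2 fold change was -2.40 for U1 (SE 0.92, 95% interval -4.43 to -0.37, unadjusted p = 0.0245, edgeR adjusted p = 0.617) and -1.59 for U11 (SE 0.88, 95% interval -3.54 to 0.36, edgeR adjusted p = 0.821). Neither passed, against 0.26% of all models called higher and 0 called lower. In library 1 the masked level was 0.102 of the input for U1 and 0.247 for U11. In library 2 it was 1.03 and 1.43 times the input. Without input 1 the log2 fold change came to -0.22 for U1 and turned to 0.73 for U11. Without masked TH59-DB 1 the values were -2.13 for U1 and -1.76 for U11. All 3 comparisons share libraries in pairs, so their values for a gene are not independent of each other.

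**Figure D2:**
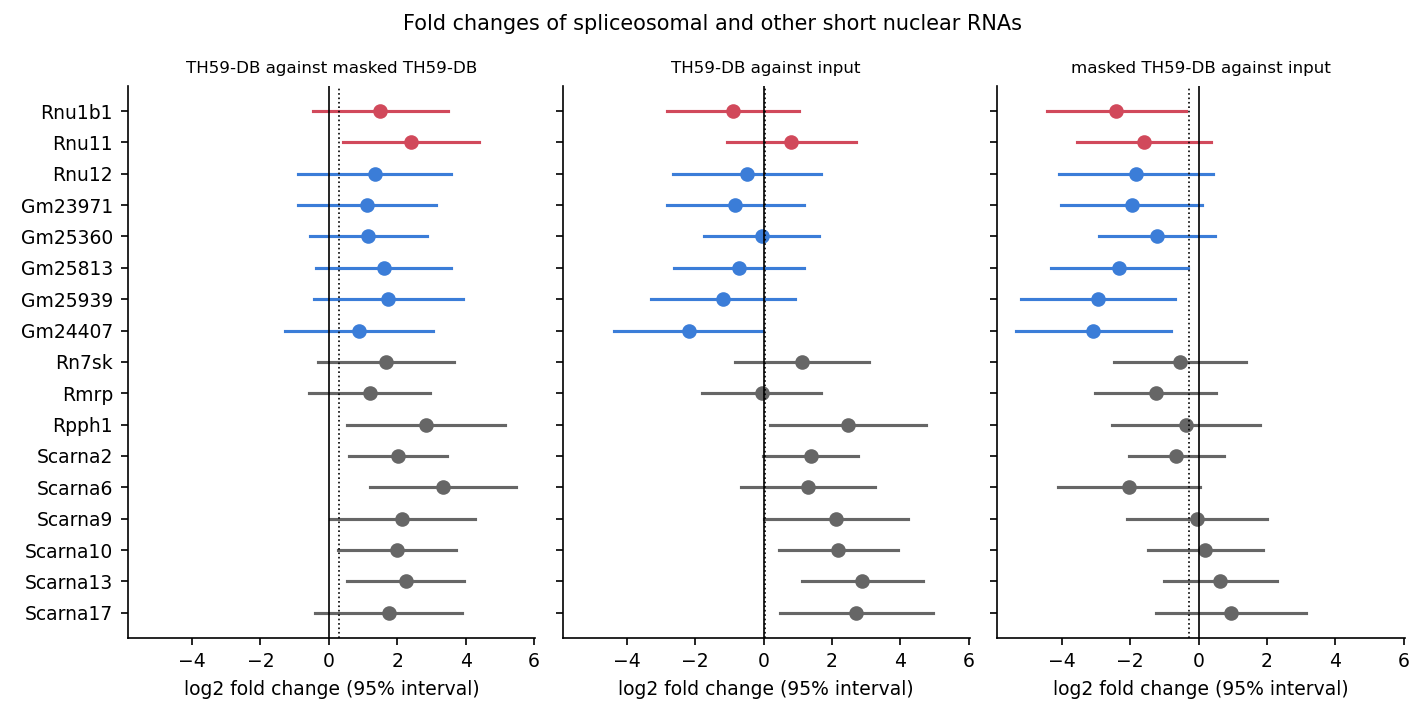
Log2 fold changes from edgeR in the 3 comparisons, with 95% intervals, for U1 and U11 (red), other snRNA genes (blue) and other short nuclear RNAs (grey). Gm22973 and Gm25541, with few reads, are not drawn. The solid line is 0 and the dotted line the median of all 5385 models tested (0.30, 0.03 and -0.26). U11 lies at 2.40 and U1 at 1.50 in the first panel, and they lie on opposite sides of 0 in the second.

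The level of U11 relative to U1 within a library does not depend on library size or on what else filled the library. There were 12.7 and 11.5 U11 reads per 100 U1 reads in input, 30.6 and 16.0 with the masked probe and 39.5 and 42.5 in TH59-DB. The groups did not overlap: every TH59-DB library lay above every masked library, and every masked library above every input library. The exact 95% binomial intervals were 32.7 to 47.4 and 32.4 to 55.3 in TH59-DB and 10.5 to 15.1 and 7.29 to 17.5 in input, which do not touch. Masked 1, with only 22 U11 reads, had an interval of 18.0 to 49.8 that took in both TH59-DB values, whereas masked 2 had 11.1 to 22.5, which took in both input values. The order of the masked libraries relative to TH59-DB and to input was thus within counting error for masked 1 and masked 2 respectively. For single models in CPM, 14.4% to 23.5% of all models tested separated in a given direction between 2 groups. The share of RNA pairs whose ratio separates the groups was not counted over all models.

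On the log2 scale (CPM plus 0.5), the U11 level minus the U1 level was higher by 1.73 in TH59-DB than in input and by 0.85 than in masked TH59-DB, and higher by 0.88 in masked TH59-DB than in input. The 2-sided exact permutation p was 0.333 for each, which is the smallest that 2 against 2 libraries allow. Over the 27 tests of 9 pairs of RNAs run in the same way, the adjusted p was 0.818. The difference between TH59-DB and input kept to 1.67 to 1.79 when any 1 of the 4 libraries was left out. That between TH59-DB and masked TH59-DB ran from 0.39 without masked 2 to 1.32 without masked 1.

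U12, which joins U11 in the minor spliceosome, was measured at 70.0 and 7.01 CPM in input, at 16.2 and 12.2 CPM in masked TH59-DB and at 50.5 and 20.9 CPM in TH59-DB. Both TH59-DB libraries lay above both masked libraries, and the input libraries lay on either side of all 4. Its log2 fold change against masked TH59-DB was 1.35 (SE 1.01, edgeR adjusted p = 0.841) and against input -0.49 (SE 0.98, adjusted p = 0.937). There were 179 and 152 U11 reads per 100 U12 reads in TH59-DB, 68.8 and 103 with the masked probe and 64.6 and 125 in input. Both TH59-DB libraries were the highest, but the interval of input 2, with only 20 U12 reads, ran from 66.7 to 237 and took in both. The interval of masked 2 ran from 63.9 to 165 and took in TH59-DB 2. The exact permutation p was 0.333 against either group, and this pair was looked at after its values were seen.

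**Figure D3:**
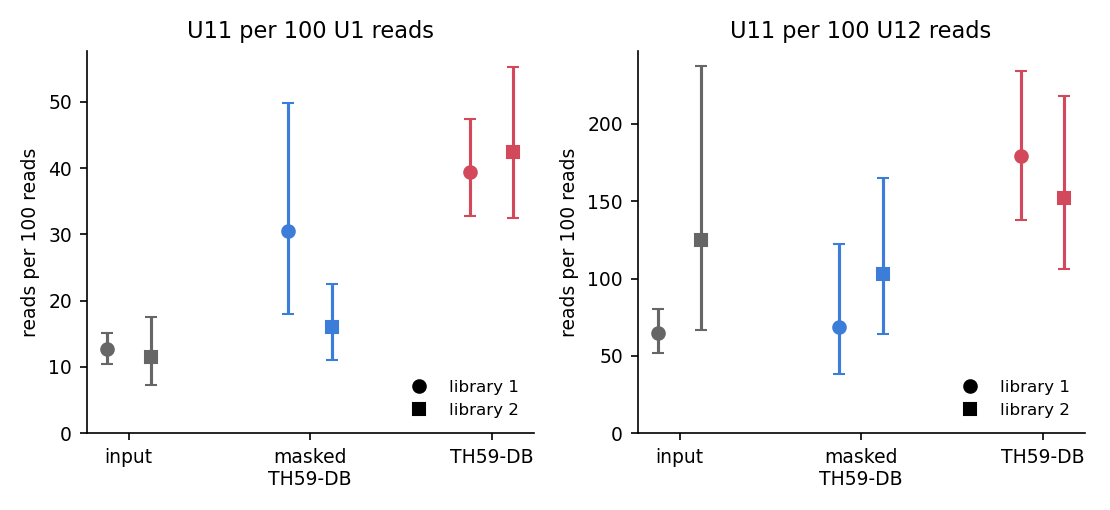
U11 reads per 100 U1 reads (left) and per 100 U12 reads (right) in each library. Circles are library 1, squares library 2, and error bars are exact 95% binomial intervals turned into ratios. On the left the TH59-DB libraries lie at 39.5 and 42.5 and the input libraries at 12.7 and 11.5. On the right the TH59-DB libraries lie at 179 and 152, both within the interval of input 2. The value of 152 also lies within the interval of masked 2.

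A further 7 snRNA genes, which RefSeq lists under Gm names without a U number in the symbol, had a single model each. With U1, U11 and U12 this made 10 snRNA genes. Both TH59-DB libraries lay above both masked libraries for 7 of the 10, against 16.1% of all models, and above both input libraries for 0 of the 10, against 22.5%. Their log2 fold changes against masked TH59-DB ran from 0.88 for Gm24407 to 3.53 for Gm25541, which had 1 read in each masked library. None of the 10 passed in any comparison. Among the 7, only U11 had exact intervals in both TH59-DB libraries that lay apart from those of both masked libraries. The closest TH59-DB and masked libraries were at 56.4 and 55.8 CPM for Gm23971 and at 8.88 and 8.33 CPM for Gm25939. All 10 genes were measured in the same libraries, so they are not independent results. Gm25813 had 65.4 and 16.6 CPM in TH59-DB, 12.7 and 13.5 CPM in masked TH59-DB and 82.4 and 17.2 CPM in input, with input 1 the highest and TH59-DB 1 the next, as for U1.

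The snRNAs differed in the same direction between the libraries of a group, and some other RNAs did so too. U1 was 4.70 times, U11 5.16 times and U12 9.99 times as high in input 1 as in input 2. In TH59-DB, library 1 was 3.07, 2.85 and 2.42 times library 2 for the same RNAs. All 10 snRNA genes were higher in library 1 than in library 2 in both of these groups, and 3 of 10 were in masked TH59-DB. The same was counted over single-exon models of up to 150, 151 to 200 and 201 to 300 bases. Library 1 of TH59-DB was higher for 45 of 82, 77 of 114 and 166 of 256. For input the counts were 46, 31 and 62, and for the masked probe 40, 34 and 64. Most models of each class thus shared the snRNA direction with TH59-DB, whereas for input only the shortest class did. 7SK, an abundant RNA that holds a transcription elongation factor inactive, did not share the snRNA pattern. It was at 1154 and 1474 CPM in input and 2815 and 2615 CPM in TH59-DB. Rpph1, the RNA of RNase P, was lower in library 1 in input, at 2191 and 3347 CPM, and higher in TH59-DB, at 19079 and 11336 CPM. Rmrp, the RNA of RNase MRP, did share the snRNA pattern. Its library 1 was at 1.58 times library 2 in input, 2.13 times in TH59-DB and 0.570 times with the masked probe. The telomerase RNA Terc was higher in library 1 in all 3 groups, at 1.41, 2.24 and 1.62 times library 2 in input, TH59-DB and masked TH59-DB.

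The snRNA models were also the shortest of these RNAs, at 113 to 217 bases against 258 to 455 bases for 7SK, Rpph1, Rmrp and the scaRNAs. Among 82 single-exon models of up to 150 bases, the median ratio of input 1 to input 2 was 1.51, and in longer classes it was 0.656 to 0.733. In TH59-DB those medians were 1.21 and 1.29 to 1.40. Within input, the ratios of U1 and U11 thus lay above the median of models of their length. The part of model length or of library preparation in the values of U1 and U11 was not tested.

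**Figure D4:**
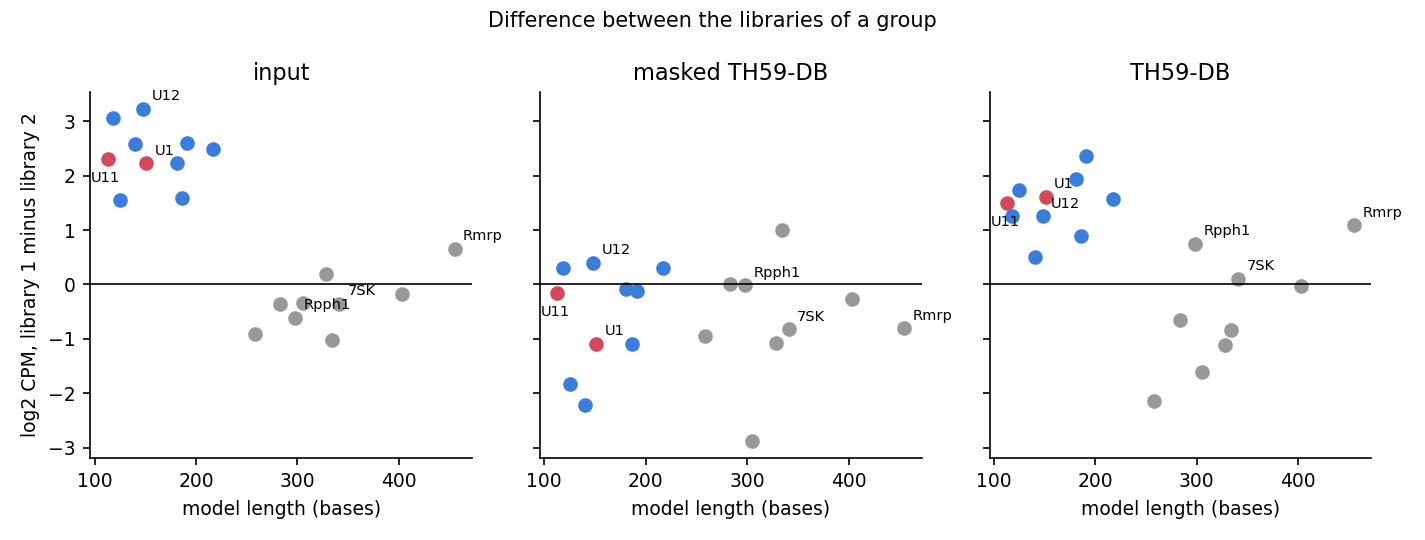
Difference in log2 (CPM + 0.5) between library 1 and library 2 of each group, against the length of the model in bases. Red points are U1 and U11, blue points other snRNA genes, and grey points 7SK, Rpph1, Rmrp and scaRNAs. All 10 snRNA genes lie above 0 in input and in TH59-DB, and 3 of 10 do in masked TH59-DB.

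Other short nuclear RNAs were set beside the pair. 7SK had a log2 fold change of 1.67 against masked TH59-DB (SE 0.90, edgeR adjusted p = 0.679), and Rmrp had 1.20 (SE 0.80, adjusted p = 0.790). Rpph1 had 2.83 (SE 1.05, adjusted p = 0.314). The 6 scaRNAs, which guide the modification of spliceosomal RNAs in Cajal bodies, ran from 1.75 for Scarna17 to 3.34 for Scarna6, and none passed. U11 at 2.40 lay within the scaRNA range and U1 at 1.50 below it. Against input the scaRNAs ran from 1.30 for Scarna6 to 2.88 for Scarna13 (SE 0.80, edgeR adjusted p = 0.0928), and U11 at 0.80 and U1 at -0.90 lay below all 6.

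Terc, the telomerase RNA, lies on the same chromosome as Rnu1b1. Its model at chr3:96414374-96414859 starts 54.3 kb past the end of Rnu1b1. Terc was measured at 33.5 and 23.8 CPM in input, at 77.1 and 47.7 CPM in masked TH59-DB and at 31330 and 13957 CPM in TH59-DB, with a log2 fold change of 8.50 against masked TH59-DB (SE 1.44, edgeR adjusted p = 0.0248). U1, measured over Rnu1b1, was at 1.50 on the same scale and did not pass. Its reads may come from other U1 copies, so this value is uncertain for the locus 54.3 kb from Terc.

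The profiles most like that of U1 over the 6 libraries, among 2217 models in genes with a mean of at least 10 CPM, were those of Gm25813, Gm25939, Gm2412, Gm7536 and Gm23971. Likeness was the Euclidean distance between centred log2 (CPM + 0.5) values, and it ran from 0.765 to 1.12 for these 5. Gm25813, Gm25939 and Gm23971 are annotated as snRNA genes. U12 ranked 15 and U11 ranked 21. For U11 the nearest profile was that of U12, at a distance of 1.32, followed by Gper1, Gm25360, Gm25813 and Gm2412 at 1.45 to 1.64, and U1 ranked 9 at 1.85. These 6 points share the libraries, their depth and the difference between library 1 and library 2 described above.

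The listed proteins of the U1 and U11 particles, their assembly and the transcription of their genes were measured as RNA in the same libraries. Of 85 such genes, 36 had a model and 34 genes with 46 models were tested. None was called in either direction in any comparison by edgeR, against 1.41%, 3.58% and 0.26% of all models called higher with TH59-DB against masked TH59-DB, with TH59-DB against input and with masked TH59-DB against input. Their median log2 fold change was -0.10, -0.31 and -0.30 in that order, beside 0.30, 0.03 and -0.26 for all models. At an unadjusted p under 0.05, 1 model of the 46 was counted in each comparison, beside 9.95%, 14.0% and 6.82% of all models. These models were matched to genes by span alone, so whether one comes from the mature transcript was not tested.

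Among proteins of the U1 particle, only Snrnp70, which binds the first stem of U1, had models. The Snrnp70 model with most reads was measured at 67.0 and 69.0 CPM in input, 39.6 and 102 CPM in masked TH59-DB and 35.5 and 28.2 CPM in TH59-DB. Both TH59-DB libraries lay below all 4 others, where 14.7% of all models lay below both masked libraries and 23.5% below both input libraries. Its log2 fold change against masked TH59-DB was -0.82 (SE 0.63, edgeR adjusted p = 0.852). Over all 5 Snrnp70 models the values ran from -1.38 to 1.33, with 2 positive, 3 negative and a median of -0.24. Of the 12 listed U1-associated proteins 8 had tested models, and 9 of their 10 log2 fold changes against masked TH59-DB were negative. Their median was -0.62, beside 0.30 for all models, and none passed. The share of all models with a negative value was not counted. Luc7l3, of the family that helps U1 choose 5′ splice sites, was at -0.09 and Rbm25, a U1-associated splicing regulator, at -0.98.

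For the Sm ring that U1 and U11 share, Snrpb and Snrpd2 had models, at -0.45 and 0.65 in log2 fold change against masked TH59-DB. Of 9 listed proteins of the U11/U12 particle, 4 had tested models, with a median of 0.09 over 6 models and none passing. These 6 ran from -0.41 to 1.01, with 3 positive and 3 negative. Against input they ran from -0.61 to 2.52, with 4 positive and 2 negative. Zrsr2, which recognises the 3′ splice site of minor introns, was measured at 20.8 and 28.4 CPM in input, 22.8 and 35.2 CPM in masked TH59-DB and 13.9 and 19.7 CPM in TH59-DB. Against masked TH59-DB, Zrsr2 was at -0.41 (SE 0.68, edgeR adjusted p = 0.964) and Zcrb1 at -0.12. Sf3b2 and Sf3b3, of the SF3b complex that both spliceosomes use, were at -0.31 and -0.13 in the same comparison. Protein genes of the particles were thus measured without any member past the threshold.

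Among factors of snRNP assembly and transport, 9 of 17 listed genes were tested, with a median of 0.89 against masked TH59-DB and none passing. These values ran from -1.33 to 8.13, with 6 positive and 3 negative. Larp7, which binds 7SK and also U6, was the lowest at -1.33. Strap, of the SMN complex, was at -0.997, with 0 and 194 reads in the masked libraries. For the transcription and 3′ processing of snRNAs, 5 of 25 listed genes were tested, and 7 of 8 models were positive. Their median was 0.66, beside 0.30 for all models, and the share of all models with a positive value was not counted. Ice1, of the little elongation complex at snRNA genes, was at 0.74 and Ints1, of the Integrator complex that cleaves snRNA precursors, at 0.57, and neither passed.

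The lowest adjusted p of these lists belonged to Tgs1, the enzyme that gives spliceosomal and telomerase RNAs their trimethylguanosine cap, and it was singled out after its values were seen. Its single-exon model at chr4:3613561-3614773 (mm10, 1213 bases) had 40 and 17 reads in TH59-DB, 0 and 0 with the masked probe and 2 and 0 in input. In TH59-DB this was 14.4 ± 11.04 CPM (SD, n = 2), at least 11.6-fold over 3 reads in each masked library. The adjusted p was 0.166 by edgeR and 0.00477 by DESeq2 against masked TH59-DB, and 0.234 and 0.0269 against input. By edgeR it was 0.0415 against masked TH59-DB with no filter on low counts, and 0.0175 against input with only the 4 libraries compared. Without masked TH59-DB 1 and 2 in turn, its log2 fold change was 8.14 and 7.86 against masked TH59-DB. Against input it was 4.91 in both cases. Without either input library or either TH59-DB library, edgeR did not call this model in either comparison. With other scalings (RLE size factors, or library totals alone), edgeR called no listed model higher in either comparison. Every model had at least 5 reads in TH59-DB 1, so one with 0 masked reads could differ only upward from masked TH59-DB. The model lies within the gene span, and whether its reads are of the Tgs1 transcript was not tested.

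**Figure D5:**
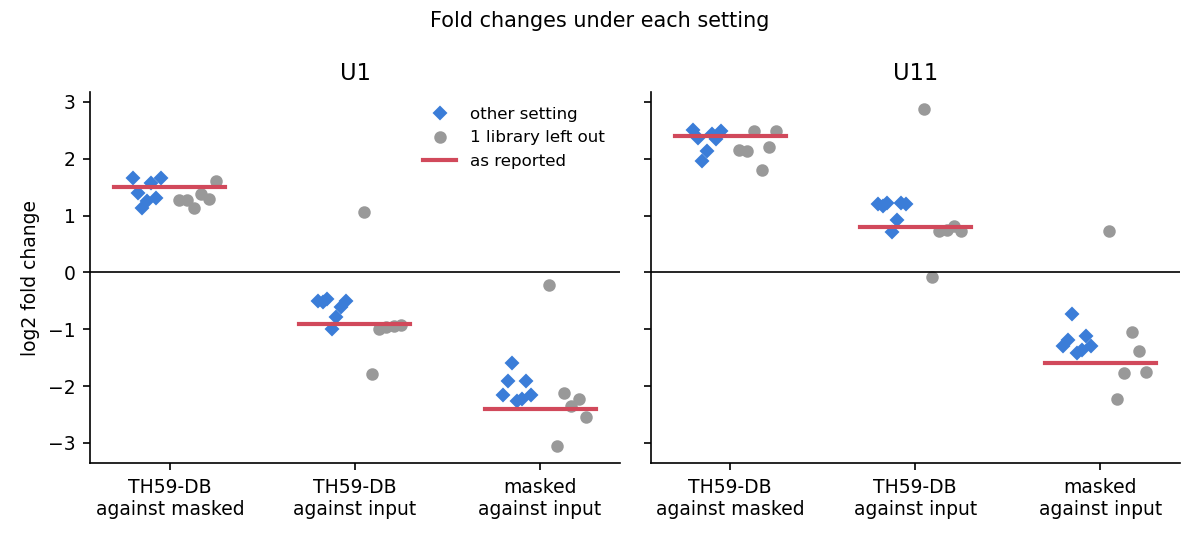
Log2 fold changes of U1 (left) and U11 (right) in the 3 comparisons under other settings. The red bar is the value as reported, blue diamonds are other tools, filters or designs, and grey circles leave out 1 library. Against masked TH59-DB all values lie above 0 for both RNAs, whereas against input a single input library turns the sign of either.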

How the data were processed

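Per the labels' protocols, RNA was extracted from crosslinked chromatin, and libraries were made with a SMARTer stranded total RNA kit. The submitters' processing notes name cutadapt, HISAT2, Cufflinks, featureCounts and mm10, with no versions. The authors deposited, for each library, counts (whole reads per assembled model) and FPKM values. Per the file headers and values, the deposited FPKM of a model with reads equals the count divided by model length and by a library total, which was recovered from it and used as the depth. What that total counts is not given in the sources used here. In 4 libraries a count of 0 was deposited with an FPKM above 0, so all values were computed from counts.

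Files were joined on chromosome, start and end (7695 of 7959 models, and 264 on chromosome, first start and length). Genes came from a RefSeq table of GRCm38.p6 gene spans. Counts were tested with edgeR 4.0.16 in R 4.3.3 (filterByExpr, TMM, glmQLFit with robust estimation, all 6 libraries, a group term), with Benjamini-Hochberg adjustment over 5385 models, and tested on simulated data. DESeq2 1.42.0, other filters and scalings, and each library left out were alternatives. Ratios within a library were computed in Python 3.11.15. The reported fit had no replicate block, and one with the block was an alternative.

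The text names U1 and U11, the other snRNAs with a model, 7SK, Rmrp, Rpph1 and scaRNAs, list members past the threshold or otherwise the 2 per list with most reads, and the 5 nearest profiles per RNA. U4 and U6 genes were listed only by family and are not reported. The members and lists were chosen with earlier results of these data known. Sequences of these RNAs were not used here.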

Additional observations from a re-analysis of the deposited data

How the results depend on the processing

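U1 and U11 were tested in 3 comparisons under 13 other settings, which gave 78 values: 74 kept their direction and their side of the threshold, 3 turned sign and 1 newly passed. Without input replicate 1, TH59-DB against input came to 1.05 for U1, and masked TH59-DB against input to 0.73 for U11. Without input replicate 2, TH59-DB against input came to -0.089 for U11. With a replicate block, TH59-DB against masked TH59-DB came to 2.35 for U11 (edgeR adjusted p = 0.0439). Over all settings this adjusted p ran from 0.0439 to 0.803, and was 0.158 by DESeq2. The numbers share no stated source. Same-numbered deviations from the group means correlated at 0.129 (input with masked TH59-DB), 0.0885 (input with TH59-DB) and -0.00786 (masked TH59-DB with TH59-DB). All 10 snRNA genes were nonetheless higher in library 1 in both input and TH59-DB. Only the number 2 file of each group had 264 models matched on chromosome, first start and length. Whether the number marks a shared batch was not tested, and the reported fit took no pairing. The block changed no other call of U1 or U11.

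Leaving out a library left 1 in its group, which the pooled fit assumes to vary like the others; this gave 1.13 to 1.61, -1.78 to 1.05 and -3.06 to -0.22 for U1 (TH59-DB against masked TH59-DB, TH59-DB against input, masked TH59-DB against input), and 1.80 to 2.49, -0.09 to 2.88 and -2.22 to 0.73 for U11. The U11 excess over U12 ran from 0.68 to 1.23, 0.41 to 1.34 and -0.55 to 0.38. In the lists, DESeq2 called 1 model higher (Tgs1) in each TH59-DB comparison, and leaving out a library gave 0 to 12 higher and 0 to 2 lower against masked TH59-DB, 0 to 2 higher and 0 lower with TH59-DB against input, and 0 to 2 higher and 0 to 14 lower with masked TH59-DB against input. Other settings, looked at for the lists after seeing the data, also gave edgeR calls: Tgs1 higher against masked TH59-DB with no filter (adjusted p = 0.0415), and with only the 4 libraries compared Tgs1 higher (0.0175) and Strap lower (-1.95, adjusted p = 0.0455) against input. The counts of 12 and 14 came without masked TH59-DB 2, where 1 masked library with 4341 models at 0 reads was left. U11 rested on as few as 22 reads in a library.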
